A study of Homo sapiens with 4 samples.

Results

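The high mobility group (HMG) proteins described here are the products of 10 genes: HMGA1 and HMGA2, HMGB1, HMGB2 and HMGB3, and HMGN1, HMGN2, HMGN3, HMGN4 and HMGN5. They were taken as a family by gene name, with earlier results of these data known, and all 10 were found among the 58174 gene rows of the table. RNA was sequenced from SW1990 and PANC-1, both established human pancreatic cancer cell lines, each left unirradiated or given 10 Gy of X-rays. Per the labels, SW1990 was grown in 1640 medium and PANC-1 in DMEM, both with 10% FBS, at passages 14 to 16. The time between radiation and RNA collection is not given in the sources used here. Each of the 4 conditions has 1 library, so no difference between an irradiated and an unirradiated library has a replicate check. The 2 lines also differ in medium, so line and medium cannot be told apart. The counts on genes summed to 17851815 in unirradiated SW1990, 18305682 in irradiated SW1990, 23323266 in unirradiated PANC-1 and 20026595 in irradiated PANC-1.

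HMG proteins are abundant non-histone proteins of chromatin that bend, loosen or bridge DNA without reading a long sequence. HMGA proteins bind the minor groove of AT-rich DNA through AT-hooks and are high in embryonic tissue and in many carcinomas. HMGB proteins bend DNA through HMG boxes, and HMGB1 released from damaged or dying cells also acts as an alarm signal for immune cells. HMGN proteins bind the nucleosome core and compete with linker histone H1. HMGA2, which the study followed up by overexpression and knockout, is silenced in most adult tissue and is a classic target of the let-7 microRNAs.

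The libraries carried markers of their labelled cell type, but EPCAM and CDH1 were low in PANC-1. All 7 markers of carcinoma epithelium reached an FPKM (fragments scaled to transcript length and to library size) of 1 in at least 1 library, and KRT8 was the highest of them. Their summed FPKM was 2885 and 3723 in the unirradiated and irradiated SW1990 libraries and 1416 and 1653 in the PANC-1 libraries. EPCAM, an epithelial adhesion protein, was at an FPKM of 217 and 218 in SW1990 but at 2.28 and 2.81 in PANC-1. CDH1 (E-cadherin) was at 140.1 and 239 in SW1990 and at 0.673 and 1.21 in PANC-1. PTPRC and CD3E, which define blood cells, had between 0 and 2 counts in each library, although the summed FPKM of the 4 immune markers was 1.77, 2.25, 19.2 and 15.0, nearly all of it CD68. The 5 fibroblast markers summed to 2.96, 3.88, 8.46 and 11.1, mostly COL1A1, while COL1A2 and DCN had 0 counts in all 4 libraries. The acinar markers, led by PRSS1, summed to at most 0.604, and the endothelial markers, led by VWF, to at most 0.309.

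All members but HMGN5 were clearly expressed, HMGA1 most of all. HMGA1 had an FPKM of 151 in unirradiated SW1990, 185 in irradiated SW1990, 197 in unirradiated PANC-1 and 193 in irradiated PANC-1, the highest value of the family in each library. HMGN2 was at 143, 97.4, 84.6 and 79.5 and HMGN1 at 136, 115, 63.7 and 62.7 in the same order. HMGB1 was at 130.1, 104, 77.2 and 50.3. In every library these genes lay above the 90th percentile of the genes whose FPKM reached 1.

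HMGB2, which rises in proliferating cells, stood at an FPKM of 76.1, 67.0, 49.0 and 48.7, and HMGN4 at 30.6, 38.0, 39.8 and 47.9. HMGB3 was at 21.4 and 19.1 in SW1990 and at 38.5 and 42.2 in PANC-1. HMGN3 was even across the libraries at 10.4, 12.3, 10.2 and 13.4. HMGA2 showed a gap between the lines, with 18.3 and 12.8 in SW1990 and 72.0 and 55.3 in PANC-1, so that it ranked 8 of 10 in both SW1990 libraries and 4 of 10 in both PANC-1 libraries. HMGN5 was close to absent at 1.26, 0.229, 0.567 and 1.42, and its counts were only 22, 11, 31 and 42. With 1 library per condition there is no spread to set neighbours in this order apart.

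**Figure D1:**
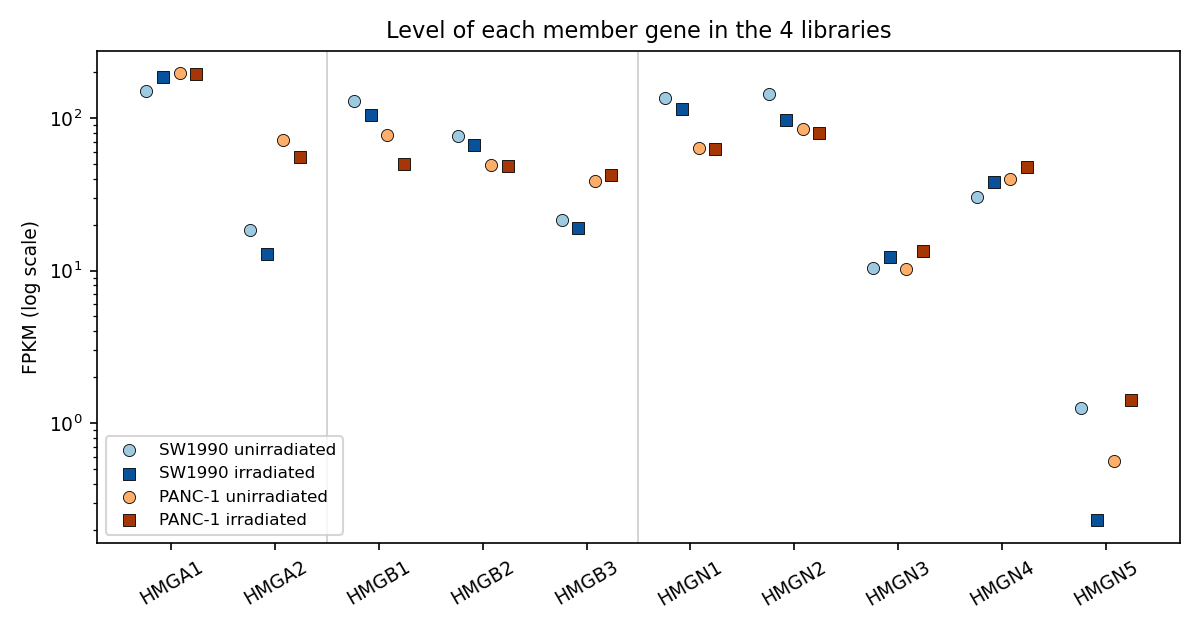
FPKM of each of the 10 member genes (log scale) in the 4 libraries; each point is 1 library. HMGA1 is the highest member in every library (151 to 197), HMGA2 and HMGB3 sit higher in both PANC-1 libraries than in both SW1990 libraries, and HMGN5 lies between 0.229 and 1.42.

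The make-up of the family differed between the lines more than with radiation. The HMGA genes gave 23.6% of the summed FPKM of the 10 members in unirradiated SW1990 and 30.4% in irradiated SW1990, against 42.5% and 41.8% in PANC-1. The HMGN genes went the other way, with 44.8% and 40.4% in SW1990 and 31.4% and 34.5% in PANC-1. The HMGB genes gave 31.7%, 29.2%, 26.0% and 23.8%. The summed level itself ranged only from 595 in irradiated PANC-1 to 718 in unirradiated SW1990. Within the HMGA genes, HMGA1 exceeded HMGA2 by 8.24 times and 14.4 times in the unirradiated and irradiated SW1990 libraries but by 2.74 times and 3.49 times in PANC-1. HMGB1 exceeded HMGB3 by 6.07 times and 5.44 times in SW1990 and by 2.01 times and 1.19 times in PANC-1.

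**Figure D2:**
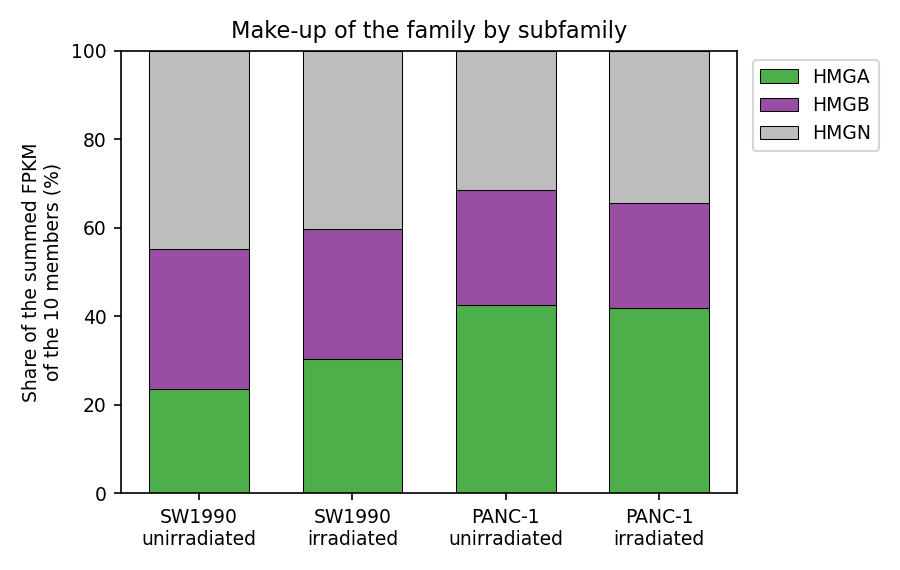
Share of the summed FPKM of the 10 members (percent) held by the HMGA, HMGB and HMGN genes, one bar per library. The HMGA share is 42.5% and 41.8% in the PANC-1 libraries and 23.6% and 30.4% in the SW1990 libraries.

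After radiation, most members were slightly lower in both lines, and 0 of 10 differed by more than 2-fold in either on scaled counts. On few counts, HMGN5 passed it in SW1990 by FPKM (-2.46 on the log2 scale) and with total counts (-1.04) and in PANC-1 by FPKM (1.32). The 2-fold limit was passed by 9.53% of the 15731 genes tested in SW1990 and by 9.12% of the 15159 genes tested in PANC-1. A limit of 1.5-fold was passed by 1 of 10 members in SW1990 (HMGN5), against 20.5% of genes, and by 0 of 10 in PANC-1, against 21.6%. Genes were tested where the FPKM was at least 1 in 1 of the libraries compared; all 10 members passed, but HMGN5 only through the single library where it was higher. In SW1990, 7 members were lower and 3 higher, with a median log2 fold change of -0.25 against 0.02 for all tested genes, of which 46.6% were lower. In PANC-1, 7 were again lower and 3 higher, with a median of -0.12 against -0.02, where 51.7% of all genes were lower. With total counts, HMGA1, HMGB3 and HMGN1 were at only -0.03, -0.01 and -0.03 in PANC-1, with intervals that hold 0. By FPKM, HMGB3 was higher there (0.13). Log2 fold changes here are ratios of counts scaled by library size (TMM), with exact 95% counting intervals, which cover counting error only. Because these are bulk samples, fewer cells that express a gene and less RNA per cell cannot be told apart.

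Of the HMGA genes, HMGA2 was lower after radiation in both lines. Its counts were 1033 and 795 in SW1990 (log2 fold change -0.36, interval -0.49 to -0.22) and 7540 and 4737 in PANC-1 (-0.54, interval -0.59 to -0.49). Larger changes were seen for 35.6% of tested genes in SW1990 and 24.1% in PANC-1. Both irradiated libraries were below their unirradiated partner, and both PANC-1 libraries stayed far above both SW1990 libraries. HMGA1, its ubiquitous relative, had 6262 and 7818 counts in SW1990, a log2 fold change of 0.34 (interval 0.29 to 0.39). In PANC-1 it had 11205 and 9430 counts, a log2 fold change of -0.12 (interval -0.16 to -0.08). HMGA1 was thus higher in the irradiated SW1990 library and lower in the irradiated PANC-1 library, where scaling to total counts leaves -0.03 (interval -0.07 to 0.01).

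On counts scaled by TMM, the 3 HMGB genes were all lower in the irradiated library of both lines. HMGB1 had 4567 and 3722 counts in SW1990 (-0.27 on the log2 scale, interval -0.34 to -0.21) and 4114 and 2754 in PANC-1 (-0.45, interval -0.52 to -0.38). The irradiated PANC-1 library held the fewest HMGB1 counts of the 4. HMGB2 had 2361 and 1973 counts in SW1990 (-0.24) and 2152 and 1683 in PANC-1 (-0.22). With total counts these values were -0.30 and -0.13, and by FPKM -0.18 and -0.01. HMGB3, highest in embryonic and blood-forming tissue, had 1272 and 1041 counts in SW1990 (-0.27) and 3344 and 2848 in PANC-1 (-0.10). For HMGB3 in PANC-1 the direction depends on the scale, since the FPKM ratio gives 0.13. Total counts leave -0.01 there (interval -0.08 to 0.06).

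The HMGN genes were divided. HMGN2 had 3527 and 2467 counts in SW1990, a log2 fold change of -0.50 (interval -0.57 to -0.42), and 2744 and 2214 in PANC-1, one of -0.18. HMGN1 had 4544 and 3825 counts in SW1990 (-0.23) and 2636 and 2219 in PANC-1 (-0.12). Both of these major nucleosome-binding members were lower in each irradiated library, but in PANC-1 total counts leave only -0.09 for HMGN2 and -0.03 for HMGN1. HMGN4, a close relative of HMGN2, had 804 and 1021 counts in SW1990 (0.37, interval 0.23 to 0.50) and 1403 and 1458 in PANC-1 (0.19, interval 0.08 to 0.29). HMGN3 had 199 and 237 counts in SW1990 (0.27, interval -0.01 to 0.55) and 257 and 290 in PANC-1 (0.30, interval 0.06 to 0.55). HMGN3 and HMGN4 were therefore the members higher in both irradiated libraries, although the interval for HMGN3 in SW1990 reaches 0. The FPKM ratio of HMGN2 to HMGN4 went from 4.68 to 2.57 in SW1990 and from 2.12 to 1.66 in PANC-1. HMGN5 had 22 and 11 counts in SW1990 (-0.98, interval -2.17 to 0.13) and 31 and 42 in PANC-1 (0.57, interval -0.14 to 1.29), and no difference was detectable at this depth.

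**Figure D3:**
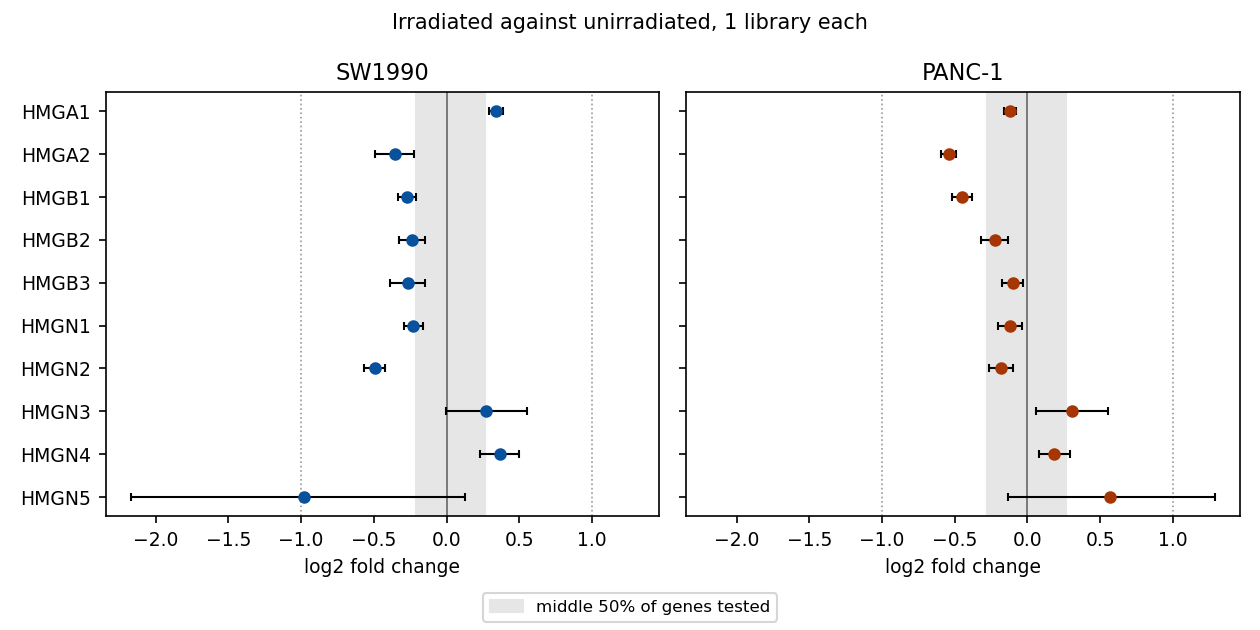
Log2 fold change of each member in the irradiated against the unirradiated library, SW1990 left and PANC-1 right; bars are exact 95% counting intervals, the grey band holds the middle 50% of all tested genes and dotted lines mark 2-fold. No member passes 2-fold on these scaled counts, HMGA2 is at -0.36 and -0.54, and HMGA1 lies at 0.34 in SW1990 and at -0.12 in PANC-1.

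Counting error alone separated many of these values from 0, as it did for other genes. In SW1990, 6 members were lower and 2 higher with an interval that left out 0, against 20.8% and 27.8% of all tested genes. In PANC-1, 7 members were lower and 2 higher on the same rule, against 30.5% and 26% of all tested genes. With libraries scaled to total counts, 4 members were lower in PANC-1, against 22.5% of genes, since the intervals of HMGA1, HMGB3 and HMGN1 then hold 0, and 6 were lower in SW1990, against 26.6%. Deeply counted genes have narrow intervals: of genes with at least 500 counts in both libraries, as 8 of the members have, 25.6% were lower in SW1990 and 41% in PANC-1, beside 6 of 8 and 7 of 8 members. These shares compare libraries, and a second culture could move them.

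Across both lines together, no member passed the test with radiation. In edgeR's quasi-likelihood fit of the 4 libraries, with line as a covariate and 1 residual degree of freedom, 0 of 10 members and 0 of 18180 genes (0%) passed an adjusted p of 0.05. At an unadjusted p below 0.05 there were 833 genes (4.58%) and 2 members. These were HMGA2, at a log2 fold change of -0.45 (unadjusted p = 0.0252, adjusted p = 0.936), and HMGB1, at -0.36 (unadjusted p = 0.0488, adjusted p = 0.936), each lower in 2 of 2 lines. DESeq2 called 39 genes with radiation and limma 0, and neither called a member; DESeq2 gave an adjusted p for 8 of the 10.

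The response to radiation was set side by side for the 2 lines, which is a description without a test. The difference of the log2 fold changes, PANC-1 minus SW1990, was -0.46 for HMGA1 (counting interval -0.52 to -0.40), and 35.0% of all genes tested in both lines had a larger one. It was 0.32 for HMGN2 (interval 0.21 to 0.43) and 1.55 for HMGN5 (interval 0.31 to 2.79), the latter on few counts. It was 0.01 for HMGB2 and 0.03 for HMGN3, and with libraries scaled to total counts 0.16 (interval 0.03 to 0.29) and 0.18 (interval -0.19 to 0.54). HMGN5 reached the FPKM minimum only in the unirradiated SW1990 and the irradiated PANC-1 library, so nothing is read from its difference. In all, 8 of 10 members, HMGN5 among them, differed between the lines by more than their counting interval, against 52.4% of all genes. Among genes with at least 500 counts in every library it was 7 of 8 members, against 65.2%. With total counts it was 6 of 10, against 53.5% of all genes, and 5 of 8, against 65.4%, where HMGB2 was added and HMGA2, HMGB1 and HMGN4 were lost.

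Between the lines, HMGA2 and HMGB3 were more than 2-fold higher in PANC-1 both without and after radiation on scaled counts, while on the FPKM scale HMGB3 stayed within 2-fold without radiation. Without radiation, 2 of 10 members passed 2-fold, against 42% of 16626 genes tested. After radiation 3 of 10 did, against 41.6% of 16819, and the third was HMGN5, on 11 against 42 counts. HMGN5 reached the FPKM minimum only in SW1990 without radiation and only in PANC-1 after it, so nothing is read from its place here. All members past 2-fold on scaled counts were higher in PANC-1, as were 21.4% of genes without radiation and 21.4% after it. Other scales add members that were lower there: without radiation HMGN1, at -1.17 with total counts and -1.10 by FPKM, and HMGN5, at -1.15 by FPKM, and after radiation HMGB1, at -1.05 by FPKM. At 1.5-fold it was 5 of 10 members without radiation, against 60.4% of genes, and 4 of 10 after it, against 59.9%. In the fit of 4 libraries, with radiation as a covariate, 4 of 10 members passed an adjusted p of 0.05, against 43.6% of 18180 genes. The 1 residual degree of freedom of this fit comes from the difference between the radiation responses of the 2 lines. Its p therefore does not measure spread between replicate cultures.

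HMGA2 had 1033 and 795 counts in SW1990 and 7540 and 4737 in PANC-1. It was 6.54-fold higher in PANC-1 without radiation (log2 fold change 2.71, interval 2.62 to 2.81) and 5.76-fold higher after it (2.53, interval 2.42 to 2.64). Of all tested genes, 17.1% differed more between the lines without radiation and 17.5% after it. In the fit of 4 libraries the log2 fold change was 2.61 (edgeR adjusted p = 0.000995). The alternatives on the same 4 libraries also called it: DESeq2, limma, total counts, no filter on low counts and line as the only term. Without any 1 library, the fit with line as the only term gave 2.33 to 2.84. On the FPKM scale the log2 difference was smaller, 1.97 without and 2.11 after radiation.

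HMGB3 had 1272 and 1041 counts in SW1990 and 3344 and 2848 in PANC-1, a log2 fold change of 1.32 in the fit (edgeR adjusted p = 0.00376). Between the unirradiated libraries it was at 1.24, and at 0.85 on the FPKM scale. A larger difference on scaled counts was seen for 35.0% of tested genes without radiation and 30.5% after it. HMGN1 went the opposite way, with 4544 and 3825 counts in SW1990 and 2636 and 2219 in PANC-1 (-0.89, edgeR adjusted p = 0.00844). The same alternatives on the 4 libraries also called these 2 genes. HMGN4 had 804 and 1021 counts in SW1990 and 1403 and 1458 in PANC-1 (0.55, edgeR adjusted p = 0.0404), but of these alternatives limma alone also called it.

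The remaining 6 members did not pass. HMGB1 was lower in PANC-1, at -0.40 in the fit (edgeR adjusted p = 0.0718), and passed with DESeq2 and with total-count scaling. HMGA1 was at 0.45 (adjusted p = 0.0876), HMGN2 at -0.37 (0.117), HMGB2 at -0.29 (0.150), HMGN5 at 1.07 (0.220) and HMGN3 at 0.22 (0.477), all adjusted p from the same edgeR fit. Scaling to total counts moves the median of all genes between the unirradiated libraries by -0.23, and the small HMGN3 difference there goes from 0.21 to -0.02.

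**Figure D4:**
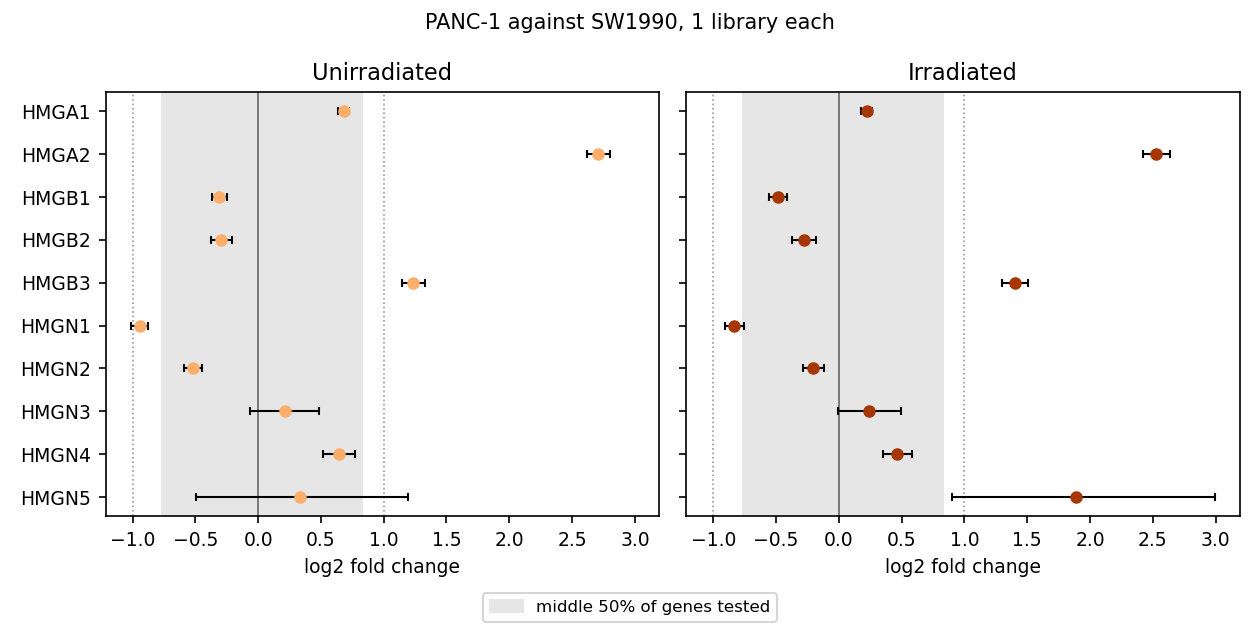
Log2 fold change of each member in PANC-1 against SW1990, unirradiated libraries left and irradiated libraries right; bars are exact 95% counting intervals, the grey band holds the middle 50% of all tested genes and dotted lines mark 2-fold. HMGA2 (2.71 and 2.53) and HMGB3 (1.24 and 1.40) lie beyond 2-fold in both panels, and HMGN1 is lowest (-0.94 and -0.83).

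The HMGA2 gene lies on the plus strand at chr12:65824131-65966295 (GRCh38) and spans 142 kb. Its main transcript in GENCODE 29 is 4473 bases long with a 3′ untranslated region of 3003 bases. The microRNAs tied to this gene are shown for their seeds, bases 2 to 8 in capitals: let-7, the classic repressor of HMGA2, and miR-194-5p, which the study placed beside it. Mature sequences are from RefSeq (GRCh38.p14).
let-7a-5p: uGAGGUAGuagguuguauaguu
miR-194-5p: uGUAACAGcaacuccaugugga

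The 7-base match to the let-7 seed, CTACCTC on the transcript strand, occurs 4 times in the 3′ untranslated region of HMGA2. The matches are printed 5′ to 3′ with those bases in capitals, and their place in GRCh38, plus strand, is given in order as chr12:65963293-65963320, chr12:65964527-65964555, chr12:65964939-65964967 and chr12:65965792-65965820.
HMGA2 match 1: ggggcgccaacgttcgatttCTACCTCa
HMGA2 match 2: atatatccccactactcaataCTACCTCt
HMGA2 match 3: gactaattgacttgcaaagacCTACCTCc
HMGA2 match 4: ttgtacaatcaaaacacactaCTACCTCt

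Of the other members, HMGA1 held 1 such match, at chr6:34245823-34245851, and the 8 HMGB and HMGN genes held 0. At least 1 match was found in 8.60% of the 18877 protein-coding genes with a principal transcript, whose median 3′ untranslated region was 878 bases, shorter than that of HMGA2. The match to the miR-194-5p seed, CTGTTAC, was in 8.98% of those genes and in 0 of the 10 members. Such a match is a string of letters and not a measured binding site, and its absence says nothing about other forms of pairing. The 6 other complete coding transcripts annotated for HMGA2 end elsewhere and hold 0 of the 4 let-7 matches.

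Some genes tied to let-7 had levels that differed between the lines. LIN28B, which blocks the maturation of let-7, had 0 counts in both SW1990 libraries and 1215 and 995 in PANC-1. Against a floor of 3 counts per library it was at least 363-fold higher without radiation and at least 321-fold higher after it. IGF2BP1, an oncofetal RNA-binding protein that shields let-7 targets, had 10 and 12 counts in SW1990 and 4589 and 3957 in PANC-1 (log2 fold changes 8.68 and 8.32). Both LIN28B and IGF2BP1 passed the FPKM minimum only through PANC-1, where they were higher, so nothing is read from these sizes. ARID3B, itself a let-7 target, had 235 and 293 counts in SW1990 and 1913 and 1350 in PANC-1 (2.87 and 2.16).

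IGF2BP2, whose transcription HMGA2 can raise, had 1875 and 2320 counts in SW1990 and 4938 and 3532 in PANC-1 (1.24 and 0.56). MIRLET7BHG, the host transcript of let-7b, had 2000 and 1463 counts in SW1990 and 741 and 872 in PANC-1 (-1.59 and -0.79). Of 11 listed genes in the table, 10 were tested without radiation, and 4 were more than 2-fold higher and 1 more than 2-fold lower in PANC-1. After radiation these were 3 and 1, and the lower gene was a different one, since MIRLET7BHG (-0.79) was then within 2-fold. The shares of all genes past 2-fold in either direction were 42% without radiation and 41.6% after it. LIN28B and IGF2BP1, which passed the FPKM minimum only through PANC-1, are among the higher genes, so nothing is read from these counts. Within each line, 0 of the listed genes passed 2-fold with radiation; MIRLET7BHG was at -0.43 in SW1990 and 0.37 in PANC-1, and ARID3B at 0.34 and -0.37. Mature let-7 and miR-194-5p were not measured in these libraries, and the part of these genes in the HMGA2 level was not tested.

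The genes whose pattern over the 4 libraries was nearest to that of HMGA2 were MPP1, ZNF155, AC002480.2, CCNJL and CTGF, out of 13491 compared. The measure was the Euclidean distance of log2(CPM + 1), centred over the libraries, where CPM is the count scaled to the library total. MPP1, a membrane scaffold protein, was nearest, at a distance of 0.0624, with 260 and 205 counts in SW1990 and 2022 and 1214 in PANC-1. CTGF, a secreted matricellular protein, was at 0.175, with 577 and 474 counts in SW1990 and 4728 and 3164 in PANC-1. Only 4 libraries enter this measure, and it is a description.

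CPM divided by FPKM gives the length that the FPKM of a gene implies, and each library was then scaled to the same median length over genes. This length depends on the transcripts assigned to the gene and on how the counts and the FPKM each treat its reads, and these cannot be told apart here. For HMGA2 this was 3.18 and 3.42 kb in SW1990 and 4.47 and 4.23 kb in PANC-1. The ratio between the lines was 1.40 without radiation, where 5.67% of 9899 genes shifted more, and 1.24 after it, where 14.2% did. For HMGB1 it was 1.98 and 1.97 kb in SW1990 and 2.27 and 2.70 kb in PANC-1, a ratio between the lines of 1.15 without and 1.37 after radiation. Of the 9 members with at least 100 counts in every library, HMGA2 without radiation and HMGB1 after it passed a ratio of 1.25 between the lines, against 13.2% and 13% of all genes. Without the scaling to a common median, HMGA2 passed it after radiation too, at a ratio of 1.26, and the shares of all genes were 13.4% and 13.2%. HMGN2 ranged only from 1.38 to 1.40 kb and HMGN3 from 1.07 to 1.08 kb.

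Several members share sequence with processed pseudogenes, so that reads may be split between copies. The table lists 48 pseudogenes of HMGB1, which together held 1670, 1377, 1113 and 1006 counts, or 26.8%, 27.0%, 21.3% and 26.8% of all counts on HMGB1 and its pseudogenes. HMGB1P5 had 849, 657, 486 and 434 counts and HMGB1P6 had 681, 601, 480 and 446, the larger of them in irradiated PANC-1. With these counts added, the HMGB1 log2 fold change with radiation was -0.27 in SW1990 and -0.34 in PANC-1 in place of -0.45. The 27 pseudogenes of HMGB3 held between 54 and 68 counts, 30 of HMGN1 between 22 and 58, 35 of HMGN2 between 17 and 48 and 7 of HMGA1 between 12 and 24. HMGA2, HMGN4 and HMGN5 had none under their own name, but HMGN4 is itself a close copy of HMGN2 and the pair may exchange reads.

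Some members overlap other genes, and whether the counting used strand is not stated. HMGA2 shares exonic bases with the antisense gene AC090673.1, which had 0, 4, 12 and 23 counts, far below HMGA2 in each library. HMGN3 overlaps HMGN3-AS1, with 29, 31, 26 and 14 counts against 199 to 290 for HMGN3. Without strand, reads of such a pair cannot be told apart.

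Other HMG-box proteins, which carry the DNA-bending box of the HMGB genes, had members in both directions. Of 34 listed, 24 were tested in SW1990, and 9 were higher and 15 lower after radiation, against 53.4% and 46.6% of all genes, with TCF7 past 2-fold (787 and 351 counts, -1.14). In PANC-1, 25 were tested, and 15 were higher and 10 lower, against 48.3% and 51.7%, with SOX18 past 2-fold (14 and 57 counts, 2.16). SOX18 was tested only through the irradiated library, where its FPKM was 1.21. In all, 1 gene of the list passed 2-fold in each line, against 9.53% and 9.12% of all genes. SSRP1, a subunit of the FACT histone chaperone, was the most abundant of them, with an FPKM from 101 to 148. Their medians were -0.08 on the log2 scale in SW1990 and 0.07 in PANC-1.

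Of 15 listed receptors and extracellular partners of HMGB1, 8 were tested between the unirradiated lines, but TLR2, TLR4, THBD and CD24 passed the FPKM minimum only through the line where they were higher, so no count of differences is read from them. TLR2 had 299 and 321 counts in SW1990 and 0 and 2 in PANC-1, while TLR4 had 0 in both SW1990 libraries and 140 and 98 in PANC-1. AGER, the receptor RAGE, was low throughout, with 65, 55, 35 and 26 counts. THBD (thrombomodulin), which binds HMGB1, had 0 counts in SW1990 and 746 and 170 in PANC-1, more than 2-fold fewer in the irradiated library. SDC4, a heparan sulfate proteoglycan, was the most abundant, at an FPKM of 39.4 to 52.9, and SDC1 had the most positive log2 fold change of those tested in PANC-1 (827 and 1372 counts, 0.86). With radiation, 6 were tested in each line; in SW1990 CD24 was past 2-fold (74 and 202 counts, 1.47) and in PANC-1 THBD was, 1 of 6 in each, against 9.53% and 9.12% of all genes. CD24 was under the FPKM minimum in PANC-1, where it had 24 and 54 counts, a larger ratio than that of SDC1.

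HMGB2 takes part in the SET complex. A list of 6 genes held members of this complex and related partners. In SW1990, 5 of 6 were lower after radiation (46.6% of all genes), with a median of -0.27. In PANC-1, 4 of 6 were lower (51.7% of all genes), with a median of -0.14, and 0 of 6 passed 2-fold in either line. SET itself had 10875 and 9180 counts in SW1990 (-0.22) and 9758 and 7623 in PANC-1 (-0.23). ANP32B, a histone chaperone on this list, was at -0.39 in SW1990 and -0.13 in PANC-1.

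Linker histones, the competitors of HMGN and HMGB proteins on the nucleosome, were lower in irradiated SW1990. Of 6 tested, 6 were lower (46.6% of all genes), 4 of them past 2-fold (4.63% of all genes), with a median log2 fold change of -1.32. In PANC-1, 5 of 6 were lower (51.7% of all genes) and 0 past 2-fold (4.18%), with a median of -0.37. HIST1H1B, the most abundant, had 4557 and 1843 counts in SW1990 (-1.29) and 8066 and 5786 in PANC-1 (-0.35). H1F0, the linker histone of resting cells, had the most negative log2 fold change of them in PANC-1, with 2386 and 1284 counts (-0.76), and was higher in PANC-1 than in SW1990 (513 and 266 counts). Of 12 histone chaperones and remodellers, 8 were lower in SW1990 and 7 in PANC-1, against the same 46.6% and 51.7% of all genes, with CBX1, a heterochromatin protein, past 2-fold in SW1990 (1653 and 561 counts, -1.54). NPM1 was the most abundant of these, at an FPKM of 595 to 698.

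Markers of proliferation and of the p53 response are given beside these values, and their part in the HMG levels was not tested. Of 10 proliferation genes, 5 were higher and 5 lower in SW1990 (median 0.04) and 9 higher and 1 lower in PANC-1 (median 0.30), with 0 past 2-fold. Of all tested genes, 53.4% were higher in SW1990 and 48.3% in PANC-1. TOP2A, a mitotic topoisomerase, was at 0.38 and 0.35 and MKI67 at -0.11 and -0.21. Of 8 genes of the p53 response, 8 were higher in SW1990, with CDKN1A (1229 and 4002 counts, 1.72) and BBC3 (1.19) past 2-fold, as 4.9% of all genes were in that direction. In PANC-1, 3 were higher and 5 lower, with GDF15 (8563 and 3611 counts) and SESN2 (5732 and 1313 counts) past 2-fold, as 4.18% of all genes were. E2F3, which the study tied to HMGA2 and miR-194-5p, had 416 and 566 counts in SW1990 (0.46) and 778 and 583 in PANC-1 (-0.29). MIR194-2HG, the host transcript of a miR-194 copy, had 48 and 46 counts in SW1990 and 9 and 6 in PANC-1, and ALDH1A1 had 0, 4, 0 and 0. E2F1, listed here as a relative of E2F3, was the most abundant of this list, at an FPKM of 17.6 to 27.7. PTGS2 (COX-2) had 153 and 255 counts in SW1990 (0.76) and 14 and 2 in PANC-1.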

How the data were processed

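Per the labels and the study's methods, the authors trimmed reads (Trimmomatic 0.36), aligned them to GRCh38 (HISAT2 2.0) and computed FPKM with StringTie 1.3.3b. They deposited 1 table of 59263 rows with a raw count and an FPKM value for each of the 4 libraries. The tool behind the counts is not given in the sources used here, and the labels describe both an mRNA kit and removal of ribosomal RNA. The 1089 rows that name no gene held between 0.453% and 0.635% of the counts and were left out. A floor of 3 counts equals 0.129 to 0.168 CPM.

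Counts were scaled by TMM (edgeR 4.0.16, R 4.3.3). Pairs of libraries were compared by ratio, with a value of 0 set to 0.01, a limit of 2-fold, a minimum FPKM of 1 and Clopper-Pearson 95% intervals. The 4 libraries were fitted with edgeR's quasi-likelihood test after filterByExpr, with Benjamini-Hochberg adjustment over all genes; the common coefficient of variation was 0.218. DESeq2 1.42.0 and limma 3.58.1 served as alternatives. A further rule, after the study's methods, used edgeR's exact test at dispersion 0 with q below 0.001, where equalized counts below 0 were set to 0. Scripts were tested on simulated counts. Seed matches were sought in the longest 3′ untranslated region of a principal transcript of each gene (GENCODE 29); of the gene rows, 57836 were in that release and 96.8% of these had the same coordinates. Names of 27 genes that had become dates were restored by identifier.

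All 10 members are named, and from each list the most abundant gene and selected largest changes within a line; other genes of a list were picked after their values were seen. The members and the lists were chosen with earlier results of these data known. Nothing in the labels says whether libraries came from separate cultures. Of the listed cell type markers, 1 is not reported here.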

Additional observations from a re-analysis of the deposited data

Results flagged for a closer look

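HMGA1 was higher in the irradiated than in the unirradiated library of SW1990 (log2 fold change 0.34) and lower in PANC-1 (-0.12), each with a counting interval that left out 0. In PANC-1 this was lost with libraries scaled to total counts (-0.03, interval -0.07 to 0.01). The difference, PANC-1 minus SW1990, was -0.46, and -0.31 with libraries scaled to total counts. With 1 library per condition this difference between the lines was not tested, and 35.0% of all genes differed by more.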

How the results depend on the processing

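With 1 library per condition, depth limits HMGN5 and HMGN3 most, and no p within a line could cover the spread between replicates. DESeq2 size factors and the rows that name no gene changed no count of members. The count of members past 2-fold after radiation in SW1990 went from 0 to 1 (HMGN5) with total counts, with the FPKM ratio and at a limit of 1.5-fold, and in PANC-1 from 0 to 1 (HMGN5) with the FPKM ratio. Between the unirradiated lines it went from 2 to 5 at 1.5-fold, to 3 with total counts (HMGN1 added) and to 3 with the FPKM ratio (HMGN1 and HMGN5 added, HMGB3 lost), and between the irradiated lines from 3 to 4 with the FPKM ratio (HMGB1 added). Of all genes, 7924 in SW1990, 7915 in PANC-1, 15061 between the unirradiated and 15334 between the irradiated lines passed 2-fold without a filter on low values. The rule with a read q-value called 662 and 712 genes with radiation in SW1990 and PANC-1, and the limit of 1.5-fold 3231 and 3278. DESeq2 called 39 genes with radiation in the fit of 4 libraries and edgeR 0. The line call for HMGN4 was lost with DESeq2 (log2 fold change 0.53), total counts (0.40), no filter (0.56) and line as the only term (0.54), a fit that gave 0.37 to 0.74 without any 1 library; HMGB1 was gained with DESeq2 (-0.42) and total counts (-0.55). With line as the only term, leaving out each library in turn gave 3 called members in every case and between 5908 and 6394 called genes. The causes of these shifts were not tested. The fit of 4 libraries pairs each irradiated library with the unirradiated one of its line through the line term. No paired analysis was possible by replicate number because the labels give none. With total counts, the members lower in PANC-1 after radiation by more than their counting interval went from 7 to 4 (HMGA1, HMGB3 and HMGN1 lost). The counting intervals and the comparison of responses under total counts and the undivided implied length were chosen after seeing the data.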
